A study of Drosophila melanogaster with 24 samples.

Results

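The peaks described here lie at the centromere-facing end of the X chromosome of Drosophila melanogaster, in ATAC-seq of adult brains. ATAC-seq measures chromatin accessibility by where a transposase can insert sequencing adapters into DNA. The members are the peaks on X with a start above 19.5 Mb in the authors' count table (build dm6), 394 of 11145 peaks or 3.54%, chosen by position alone. All 394 passed the filter on low counts, and the smallest count of any of them in any library was 34. The first of them (19513486 to 19514466, in CG14200) averaged 82.7 CPM (counts scaled to a common library size), and the last peak outside (19498776 to 19499176) averaged 42.3 CPM. The last member ends at 23541453, towards the ribosomal DNA.

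Every sample came from brains of adult female flies, 8 brains per sample per the labels, with 3 samples in each of 8 groups. The flies were H3.3null, H3.3H3.2, H3.3S31A or OreR, each at day 10 and at day 1 after eclosion (emergence of the adult). H3.3 is the replacement form of histone H3, which is put into chromatin outside DNA replication, and H3.2 is the form made for replication. From the names, H3.3null flies lack H3.3, H3.3H3.2 flies make H3.2 in its place, H3.3S31A flies carry alanine at serine 31 of H3.3, and OreR (Oregon-R, titled H33WT) is a wild-type laboratory strain. No group has unaltered H3.3 in a mutant stock, so effects of genotype and differences between the stocks' X chromosomes, in sequence or copy number, cannot be told apart. Nothing in the labels says that the 3 samples of a group came from separate cultures, so p-values measure the spread between these samples. In bulk tissue, fewer cells with an open site and less opening per cell cannot be told apart.

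Pericentromeric DNA is rich in satellites and remnants of transposons, and much of it is packed as heterochromatin marked by methylation of histone H3 at lysine 9 and bound by HP1. On the fly X, the border between euchromatin and this heterochromatin holds lncRNA:flam (flamenco), a long noncoding transcript that is cut into piRNAs and silences retrotransposons such as gypsy in the somatic cells of the ovary. Beyond it lie gene-poor repeats, scattered genes such as stnA and stnB, and then the ribosomal RNA gene array.

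Depth was 3021672 to 4890579 counts per library, and the median count of a member in a library was 264. At His3.3B, an H3.3 gene of X, the peak at 9154788 to 9155165 held 9.34 to 18.5 CPM in the H3.3null libraries, 39.4 to 54.6 CPM in the H3.3H3.2 and H3.3S31A libraries and 36.6 to 48.4 CPM in the OreR libraries. Of its other 2 peaks, 9152177 to 9152538 held 56.4 to 70.6 CPM in H3.3null and 67.0 to 95.5 CPM in OreR, and 9155649 to 9156872 held 209 to 246 CPM in H3.3null and 193 to 228 CPM in OreR. At His3.3A, the other H3.3 gene, 1 peak held 41.6 to 56.6 CPM in H3.3null and 45.1 to 62.7 CPM in OreR, and the next 41.4 to 65.4 CPM in H3.3null and 18 to 27.4 CPM in OreR. Of the marker genes of adult brain, all 6 neuronal and 3 of 4 glial genes had a peak (alrm had none). Peaks were found at 0 of 4 photoreceptor, 0 of 3 muscle, 0 of 2 haemocyte and 1 of 3 fat body genes (Yp1). Replicates of a group differed by more than sampling noise in every pair (chi-square per degree of freedom 2.2 to 8.22), so none was taken for a repeat deposit of another. This does not show that they came from separate animals.

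The 394 peaks were set into 4 stretches of X by their start, numbered towards the centromere. Stretch 1 ran up to 20.5 Mb and held 110 peaks, stretch 2 up to 21.5 Mb with 71, stretch 3 up to 22.5 Mb with 161, and stretch 4 the remaining 52. In stretch 1, 80.0% of peaks overlapped an annotated gene, and in stretch 2 67.6% did. Gene overlap was 28.0% in stretch 3 and 30.8% in stretch 4, against 87.7% over the rest of X. Stretch 3 also held most of the broad peaks: 31 of its 161 peaks were 2000 bp or wider (19.3%), against 1.57% of the 1782 peaks on the rest of X. Its widest peak spans 7680 bp. Summed over its peaks, stretch 3 took 2.61% of normalised counts (the scaled library size) on average, more than the 3 other stretches added together. Per kilobase of peak, the median level of a peak was lowest in stretch 3, at 112 CPM per kb, and highest in stretch 2, at 133 CPM per kb. The gene table used gives gene ends without exons or strand, so places within genes (exon, intron or UTR) were not assigned.

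Each mutant was set against OreR at the same age to ask how the loss or the alteration of H3.3 changes accessibility. In H3.3null brains, 106 of the 394 members fell and 47 rose at day 10, and 119 fell and 32 rose at day 1. Calls here and below rest on an adjusted p under 0.05 in edgeR's quasi-likelihood test with Benjamini-Hochberg adjustment over all 11145 peaks. At day 10, 9% of all peaks were called lower and 15.5% higher, against 26.9% and 11.9% of the members, and 24.5% either way, against 38.8% of the members. The corresponding shares of all peaks at day 1 were 10.6% lower and 14.1% higher, against 30.2% and 8.12% of the members, and 24.7% either way, against 38.3%. The median log2 fold change of the members was -0.12 at day 10 and -0.14 at day 1, beside -0.01 and -0.00 over all peaks. Of these members, 94 were called lower at both ages (5.2% of all peaks were) and 26 higher at both (10.3% of all peaks were).

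H3.3H3.2 and H3.3S31A brains were called against OreR at fewer members. H3.3H3.2 had 20 members higher and 17 lower at day 10 and 18 higher and 26 lower at day 1. The called shares, 9.39% of members at day 10 and 11.2% at day 1, lay near those of all peaks (10.7% and 11.1%). Of all peaks, 7.13% were higher and 3.54% lower at day 10, and 6.94% higher and 4.21% lower at day 1. H3.3S31A had 22 higher and 21 lower at day 10 and 14 higher and 28 lower at day 1, with 10.9% and 10.7% of members called against 10.2% and 10.5% of all peaks. Of all peaks, 6.43% were higher and 3.77% lower at day 10, and 6.24% higher and 4.27% lower at day 1. Without the OreR day 10 replicate 1 library, the H3.3S31A count at day 10 was 28 in place of 43. The H3.3H3.2 count at day 10 was 74 in place of 37 when only the libraries of the compared groups were fitted. In all, 206 members were called in at least 1 of these 6 comparisons and 188 in none. The 3 mutants share their OreR libraries, so their values are given side by side without a measure of overlap.

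**Figure D1:**
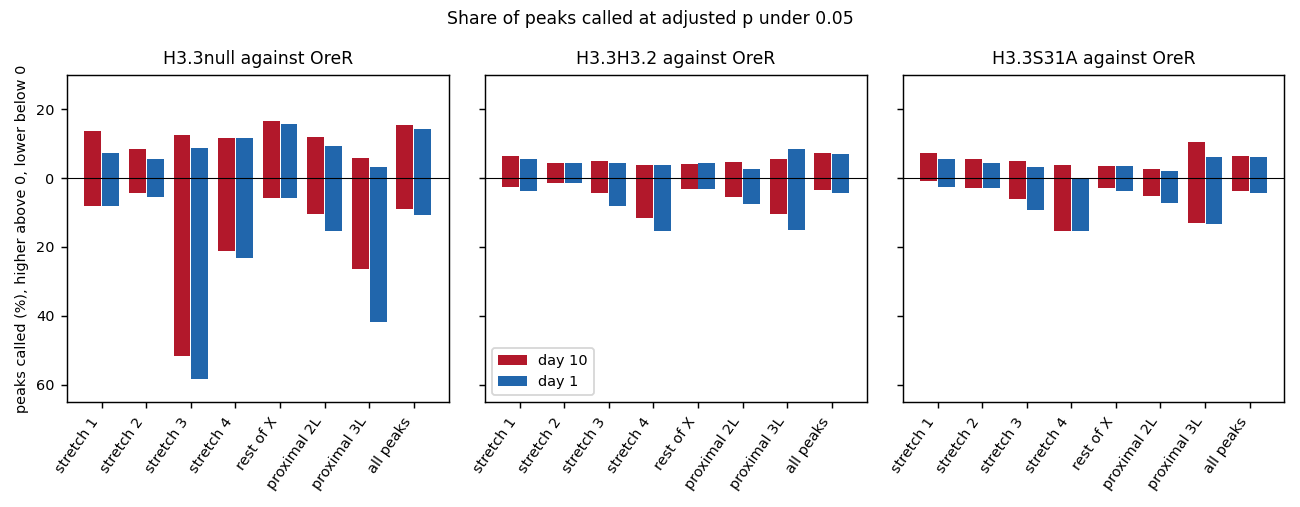
Share of peaks called higher (above 0) or lower (below 0) than OreR at day 10 (red) and day 1 (blue), in percent of the peaks of each region, at an edgeR adjusted p under 0.05. In H3.3null, 51.6% of the peaks of stretch 3 were lower at day 10 and 58.4% at day 1, against 9% and 10.6% of all peaks.

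The H3.3null losses were concentrated by position. Over all peaks, 9% were lower and 15.5% higher at day 10, and 10.6% lower and 14.1% higher at day 1. In stretch 3, 83 of 161 peaks fell and 20 rose at day 10, and 94 fell and 14 rose at day 1, with medians of -0.40 and -0.47. In stretch 1, 9 peaks fell and 15 rose at day 10, and 9 fell and 8 rose at day 1. Stretch 2 had 3 lower and 6 higher at day 10, and 4 lower and 4 higher at day 1. In stretch 4, 11 fell and 6 rose at day 10, and 12 fell and 6 rose at day 1. Thus most of the lower calls came from the stretch with the broad peaks and few genes. By gene overlap, 84 of the 197 members outside genes fell in H3.3null at day 10, and 22 of the 197 in genes did. At day 1 the same counts were 96 and 23. Of the 197 outside genes, 101 lie in the tract described next, and of the other 96, 11 fell at day 10 (11.5%) and 18 at day 1 (18.8%). These 11, and the lower calls in genes and in stretch 1, lay near the lower share of all peaks.

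**Figure D2:**
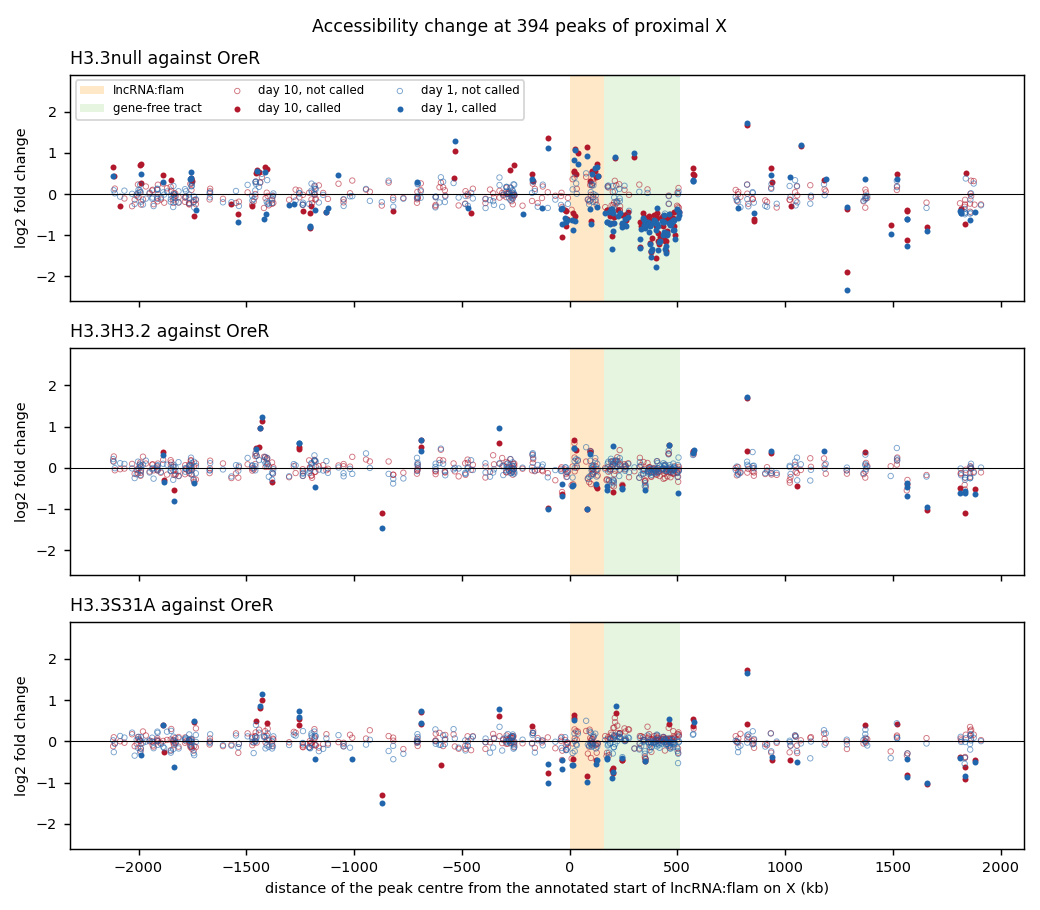
Log2 fold change of each of the 394 peaks against OreR, by distance of the peak centre from the annotated start of lncRNA:flam (kb, increasing towards the centromere), with 1 panel per mutant, at day 10 (red) and day 1 (blue), called peaks filled. The dense run of lower peaks in the H3.3null panel lies in the 352 kb without annotated genes beyond lncRNA:flam, where 73 of 101 peaks fell at day 10 and 78 at day 1.

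Most of the peaks lower in H3.3null lay in 1 tract without an annotated gene, between the end of lncRNA:flam at 21790731 and the start of CG40813 at 22143058. The borders of this tract were set after its values had been seen, so its counts are a description without a test of their own. Its 352 kb hold 101 peaks, 26 of them 2000 bp or wider. In H3.3null, 73 of these fell and 2 rose at day 10, with a median log2 fold change of -0.55, and 78 fell and 2 rose at day 1, with a median of -0.68. Against this, 9% of all peaks were lower and 15.5% higher at day 10, and 10.6% lower and 14.1% higher at day 1. The same 72 tract peaks were lower at both ages (5.2% of all peaks were). In H3.3H3.2, 2 fell and 1 rose at day 10 (median -0.05), and 6 fell and 2 rose at day 1 (median -0.04). In H3.3S31A, 6 fell and 2 rose at each age, with medians of 0.06 at day 10 and -0.03 at day 1. For H3.3H3.2, 3.54% of all peaks were lower and 7.13% higher at day 10, and 4.21% and 6.94% at day 1. For H3.3S31A the shares were 3.77% and 6.43% at day 10, and 4.27% and 6.24% at day 1. The small tract counts of H3.3H3.2 and H3.3S31A moved with the libraries fitted. Without H3.3S31A day 10 replicate 1, 2 tract peaks fell and 11 rose in H3.3S31A at day 10 (median 0.15), and without day 10 replicate 2 or 3 of H3.3S31A, 1 rose. In H3.3H3.2 at day 10, 15 fell and 4 rose when only the compared groups were fitted, 4 fell under library totals, the replicate block or DESeq2, and 1 fell without OreR replicate 1 or 2 or H3.3H3.2 replicate 3 of that age. At day 1, 10 fell in either genotype without OreR day 1 replicate 1. Without OreR day 1 replicate 2 or 3, 3 fell for H3.3H3.2, and 3 and 2 for H3.3S31A. Leaving out H3.3H3.2 day 1 replicate 2 gave 3 falls, and leaving out H3.3S31A day 1 replicate 1, 2 or 3 gave 2, 3 and 10.

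Sums here are in percent of normalised counts (the scaled library size), and the total over all peaks varies between libraries. The tract summed to 1.59%, 1.30% and 1.53% in the 3 H3.3null libraries of day 10, against 2.17%, 2.19% and 2.05% in OreR. At day 1 it summed to 1.30%, 1.41% and 1.5% in H3.3null, against 1.83%, 2.35% and 2.41% in OreR. All 6 H3.3null libraries lay below all 6 OreR libraries, and the OreR day 1 replicate 1 library was the lowest of its genotype. Without that library, 80 tract peaks were lower at day 1 and the median was -0.79. Leaving out other libraries gave as few as 69 at day 1. This was without OreR replicate 3 (median -0.60) or H3.3null replicate 1 (median -0.62) of that age. At day 10, 60 tract peaks were lower without H3.3null replicate 2 (median -0.47) and 62 without OreR replicate 1 (median -0.52). The summed share was 1.96% to 2.28% over the H3.3H3.2 libraries and 1.92% to 2.43% over the H3.3S31A libraries, both above every H3.3null library.

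A set of 10 tract peaks measured 3268 to 3482 bp, held 477 to 540 CPM on average and lay at places from 21817612 to 22111415. Their H3.3null changes ran from -0.68 to -0.51 at day 10 and from -0.71 to -0.64 at day 1. In H3.3H3.2 the same 10 peaks changed by between -0.12 and -0.01 at day 10, and in H3.3S31A by between -0.02 and 0.13, and none of these was called. Whether these peaks are copies of 1 repeat was not tested. How reads that match several places were counted is not given in the sources used here, so the value of any single peak in repeats is uncertain.

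The peak at 22055863 to 22062805, 6942 bp wide, shows the common size of the change. It held 773, 647 and 736 CPM in H3.3null at day 10, against 1089, 1073 and 1036 CPM in OreR. In H3.3H3.2 it held 1069, 968 and 1071 CPM, and in H3.3S31A 978, 1192 and 1119 CPM. The H3.3null libraries lay below all the others. The log2 fold change in H3.3null was -0.57 ± 0.12 (SE; edgeR adjusted p = 0.000422) at day 10 and -0.65 ± 0.12 (edgeR adjusted p = 7.54e-05) at day 1.

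Another 3 runs of peaks in the tract fell further. The first, from 22004614 to 22012889, held 4 peaks with H3.3null changes between -1.41 and -1.06 at day 10 and between -1.53 and -1.22 at day 1. The second, from 22041060 to 22049867, held 3 peaks at between -1.21 and -1.05 at day 10, and the third, from 22075603 to 22082362, 3 peaks at between -1.38 and -1.14. In the third run, the peak at 22079630 to 22082362 held 187, 142 and 148 CPM in H3.3null at day 10, against 401, 427 and 413 CPM in OreR. H3.3H3.2 held 424, 364 and 369 CPM there and H3.3S31A 380, 471 and 449 CPM, so that only the H3.3null libraries were apart. This peak changed by -1.38 ± 0.12 in H3.3null at day 10 (edgeR adjusted p = 1.57e-11) and by -1.43 ± 0.12 at day 1 (edgeR adjusted p = 5.63e-12).

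The largest fall of the tract was at a narrow peak, 22034845 to 22035218. It held 13.3, 13.0 and 18.3 CPM in H3.3null at day 10, against 47.1, 39.5 and 46.4 CPM in OreR. At day 1 it held 12.4, 11.9 and 15.4 CPM in H3.3null, against 40.8, 49.8 and 45.5 CPM in OreR. The groups did not overlap, and the log2 fold changes were -1.55 ± 0.15 at day 10 (edgeR adjusted p = 4.47e-10) and -1.77 ± 0.15 at day 1 (edgeR adjusted p = 1.94e-11). H3.3H3.2 and H3.3S31A held 37.5 to 52.2 CPM at day 10, near the OreR values.

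Not all tract peaks followed the run, and those given next are examples. At 21932914 to 21933241 accessibility rose in H3.3null, by 0.90 ± 0.17 at day 10 (edgeR adjusted p = 5.87e-05) and by 1.00 ± 0.17 at day 1 (edgeR adjusted p = 1.14e-05). The peak at 21843206 to 21843495 rose there by 0.88 ± 0.17 and 0.91 ± 0.17. Next to it, the widest member of all (21844760 to 21852440) was higher in H3.3S31A and in no other mutant. It held 1325, 1730 and 1334 CPM in H3.3S31A at day 10, against 961, 932 and 837 CPM in OreR, a change of 0.69 ± 0.17 (edgeR adjusted p = 0.00607). At day 1 it held 1748, 1760 and 1966 CPM in H3.3S31A, against 822, 1027 and 1148 CPM in OreR (0.87 ± 0.17, edgeR adjusted p = 0.000435). The H3.3null libraries spread from 578 to 1287 CPM at this peak and overlapped OreR. At 21873315 to 21874392, accessibility was lower than in OreR in all 3 mutants at both ages, by -0.51 to -0.42 at day 10 and by -0.70 to -0.40 at day 1.

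**Figure D3:**
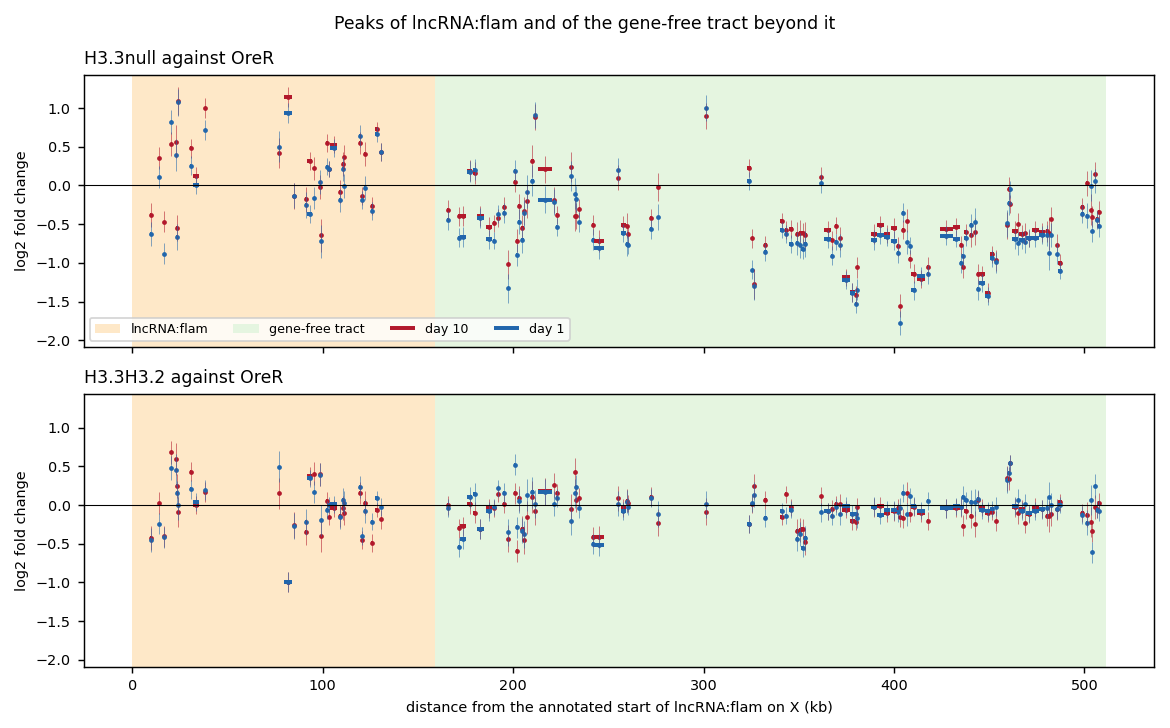
Log2 fold change of each peak of lncRNA:flam (orange) and of the gene-free tract (green) against OreR, by distance from the annotated start of lncRNA:flam (kb), for H3.3null and H3.3H3.2 at day 10 (red) and day 1 (blue). Bars span the peak's width and vertical lines are 1 SE. The H3.3null peaks are mixed in sign over lncRNA:flam and mostly below 0 in the tract, where the median is -0.55 at day 10 and -0.68 at day 1.

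Over lncRNA:flam itself (21631891 to 21790731, 159 kb), 13 of 30 peaks rose and 3 fell in H3.3null at day 10, when 15.5% of all peaks were higher and 9% lower. At day 1, 8 rose and 6 fell, when 14.1% of all peaks were higher and 10.6% lower. H3.3H3.2 had 3 higher and 3 lower at day 10 and 2 higher and 4 lower at day 1, and H3.3S31A had 2 higher and 3 lower at day 10 and 1 higher and 5 lower at day 1. For H3.3H3.2, 7.13% of all peaks were higher and 3.54% lower at day 10, and 6.94% and 4.21% at day 1. For H3.3S31A the shares were 6.43% and 3.77% at day 10, and 6.24% and 4.27% at day 1. Summed, the locus took 0.493% to 0.567% of the normalised counts in H3.3null at day 10, against 0.328% to 0.369% in OreR. At day 1 it took 0.488% to 0.529% in H3.3null, against 0.316% to 0.414% in OreR. The H3.3H3.2 libraries (0.289% to 0.328%) and those of H3.3S31A (0.279% to 0.330%) lay below every H3.3null library. These sums include the widest peak, described next. Without it, the locus took 0.252% to 0.302% in H3.3null at day 10, against 0.223% to 0.246% in OreR, and at day 1 0.253% to 0.284% in H3.3null, overlapping the 0.211% to 0.269% in OreR. Also without it, H3.3H3.2 averaged 0.237% ± 0.00629 and OreR 0.237% ± 0.0125 at day 10 (SD, n = 3 each).

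The widest peak of lncRNA:flam, 21711354 to 21715885, moved in opposite directions between H3.3null and the replacement genotypes. It held 2652, 2409 and 2354 CPM in H3.3null at day 10, 553, 529 and 603 CPM in H3.3H3.2, 548, 745 and 578 CPM in H3.3S31A, and 1072, 1228 and 1056 CPM in OreR. The genotypes fell into 3 levels, with H3.3null on top, OreR between, and H3.3H3.2 and H3.3S31A below without being separated from each other. Against OreR at day 10 it changed by 1.14 ± 0.13 in H3.3null (edgeR adjusted p = 1.11e-08), by -0.99 ± 0.13 (3.31e-07) in H3.3H3.2, and by -0.84 ± 0.13 (6.28e-06) in H3.3S31A. The day 1 libraries had the same order: 2514, 2212 and 2453 CPM in H3.3null, 579, 638 and 673 CPM in H3.3H3.2, 632, 604 and 659 CPM in H3.3S31A, and 1048, 1265 and 1447 CPM in OreR. At day 1 the changes were 0.93 ± 0.13, -0.99 ± 0.13 and -0.99 ± 0.13 in the same order (edgeR adjusted p at most 6.35e-07).

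A peak 5560 bp from lncRNA:CR46472 and outside lncRNA:flam, at 21532665 to 21533781, had the same order of genotypes. It held 633, 617 and 608 CPM in H3.3null at day 10, 112, 115 and 141 CPM in H3.3H3.2, 124, 171 and 128 CPM in H3.3S31A, and 228, 261 and 238 CPM in OreR. Its changes against OreR at day 10 were 1.35 ± 0.12, -0.98 ± 0.12 and -0.78 ± 0.12, and at day 1 1.13 ± 0.12, -1.01 ± 0.12 and -1.0 ± 0.12, listed as H3.3null, then H3.3H3.2, then H3.3S31A. The values of both peaks may rest on reads shared with copies elsewhere.

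Other peaks of lncRNA:flam differed in which genotypes were called. The peak at 21655723 to 21656062 held 41.9, 43.4 and 46.3 CPM in H3.3null at day 10, against 23.7, 23.6 and 14.8 CPM in OreR, and rose by 1.09 ± 0.18 (edgeR adjusted p = 7.62e-06). It rose by 1.08 ± 0.17 at day 1, while H3.3H3.2 and H3.3S31A stayed between -0.24 and 0.07 without a call. The peak at 21652069 to 21652555 was higher in all 3 mutants at both ages, by 0.53 to 0.68 at day 10 and 0.48 to 0.82 at day 1. At 21648357 to 21648788, H3.3null was lower (-0.47 at day 10, -0.88 at day 1), as was H3.3S31A (-0.43 and -0.58). H3.3H3.2 was called there at day 1 (-0.42) and lay just over the threshold at day 10 (-0.40, edgeR adjusted p = 0.0502). The peak at 21723811 to 21726144 was called in opposite directions at the 2 ages in H3.3null, by 0.31 ± 0.12 at day 10 (edgeR adjusted p = 0.043) and by -0.37 ± 0.12 at day 1 (0.0151). It was the only member so called, and the difference between the age effects was not called (edgeR adjusted p = 0.155).

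Just before lncRNA:flam lies a run of near-identical genes, CG33502, CG32820, CG32857, CG32819 and CG32500, with 1 peak each, whose reads may be shared between the copies. In H3.3null, 4 of the 5 peaks fell at each age, by -0.77 to -0.40 at day 10 and by -0.69 to -0.57 at day 1. The peak of CG32500 changed by -0.09 and -0.24 without a call. None of the 5 was called in H3.3H3.2 or H3.3S31A. Of the neighbouring gene DIP1 the table holds 0 peaks.

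**Figure D4:**
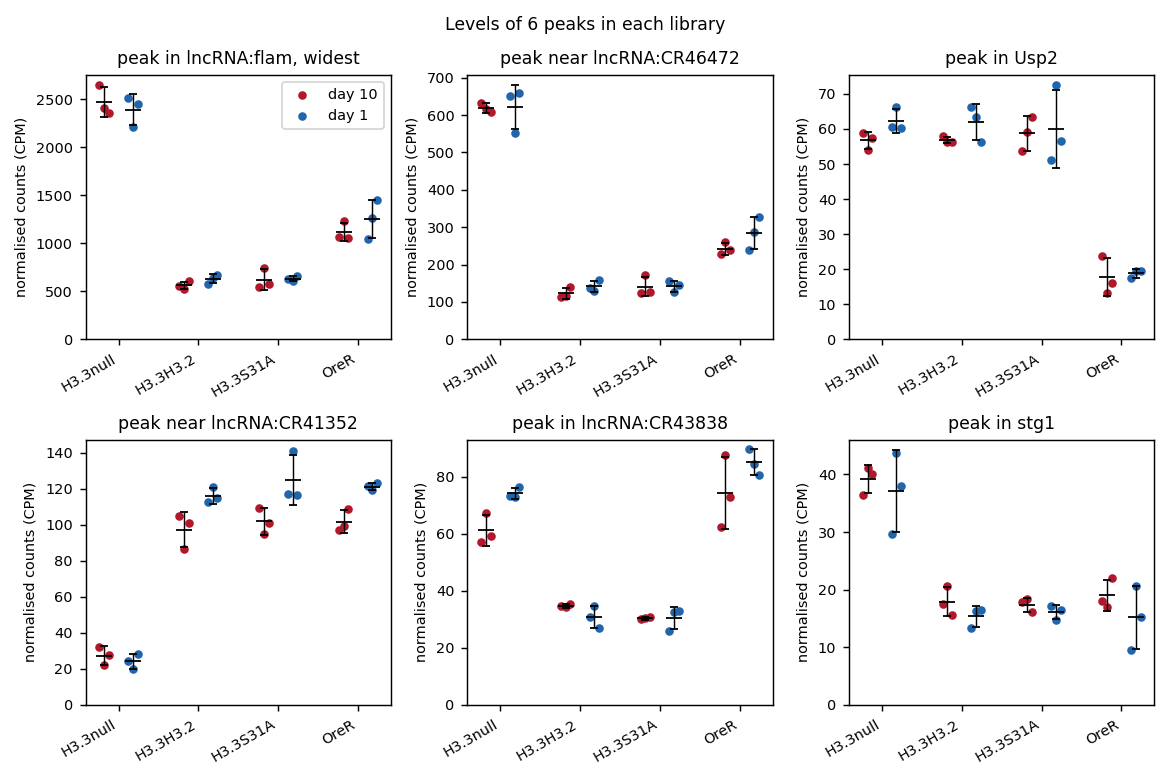
Normalised counts (CPM) of 6 peaks in each library, for H3.3null, H3.3H3.2, H3.3S31A and OreR at day 10 (red) and day 1 (blue), with the mean and SD of 3 libraries. The panels show the widest peak of lncRNA:flam, the peaks near lncRNA:CR46472 and lncRNA:CR41352 and the peaks in Usp2, lncRNA:CR43838 and stg1. The stg1 peak also overlaps CG15446. The Usp2 peak lies between 51.0 and 72.5 CPM in the mutants and between 13.3 and 23.7 CPM in OreR.

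In Usp2, which encodes a ubiquitin-specific protease, the peak at 22456187 to 22456499 was higher in every mutant. At day 10 it held 58.9, 54.1 and 57.3 CPM in H3.3null, 57.9, 56.2 and 56.4 CPM in H3.3H3.2, 53.6, 59.2 and 63.4 CPM in H3.3S31A, and 23.7, 13.3 and 16.1 CPM in OreR. The mutants overlapped each other and none overlapped OreR. The day 10 changes were 1.68 ± 0.15, 1.68 ± 0.15 and 1.73 ± 0.15 in the same order of genotypes (edgeR adjusted p at most 1.02e-10), and the day 1 changes 1.72 ± 0.15, 1.71 ± 0.15 and 1.66 ± 0.15. The other 3 peaks of Usp2 changed by between -0.24 and 0.42 at day 10, and by between -0.30 and 0.23 at day 1.

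A peak 379 bp from lncRNA:CR41352, at 22917877 to 22918464, fell in H3.3null alone. It held 32.1, 21.9 and 27.8 CPM in H3.3null at day 10, 105, 86.3 and 101 CPM in H3.3H3.2, 110, 94.9 and 101 CPM in H3.3S31A, and 97.0, 99.4 and 109 CPM in OreR. The H3.3null change was -1.90 ± 0.12 (edgeR adjusted p = 1.45e-14) at day 10 and -2.33 ± 0.12 (3.34e-17) at day 1, the largest of any member in these comparisons. In H3.3H3.2 and H3.3S31A the changes lay between -0.07 and 0.04 at both ages. The next peak, 22918771 to 22919295, fell in H3.3null by -0.35 and -0.30.

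Within lncRNA:CR44997, a noncoding gene of 140 kb, 1 peak (22704608 to 22705768) rose in H3.3null alone. It held 176, 151 and 159 CPM in H3.3null at day 10, against 85.5, 62.1 and 70.7 CPM in OreR, and rose by 1.16 ± 0.12 (edgeR adjusted p = 6.82e-10), with 1.18 ± 0.12 at day 1. H3.3H3.2 and H3.3S31A held 63.0 to 81.8 CPM at day 10, within the OreR range. Upstream on X, lncRNA:CR43838 showed the other pattern, a fall in both replacement genotypes. Its peak at 20760397 to 20760772 held 34.5, 34.2 and 35.4 CPM in H3.3H3.2 at day 10 and 29.9, 30.3 and 30.7 CPM in H3.3S31A, against 62.3, 87.7 and 72.9 CPM in OreR. It changed by -1.10 ± 0.12 (edgeR adjusted p = 1.33e-08) and -1.29 ± 0.13 (7.67e-10), and at day 1 by -1.46 ± 0.12 and -1.49 ± 0.12. H3.3null held 57.0, 67.4 and 59.4 CPM at day 10 and was not called (-0.28 ± 0.12, edgeR adjusted p = 0.0774).

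Towards the ribosomal DNA, 25 members lie beyond ATbp, 1 of them in the 28S ribosomal RNA pseudogene CR45853 and the others outside genes. Of these, 8 fell and 2 rose in H3.3null at day 10 (9% and 15.5% of all peaks). Day 1 H3.3null brains had 10 lower and 1 higher (10.6% and 14.1% of all peaks). H3.3H3.2 had 5 lower and 0 higher at day 10 (3.54% and 7.13% of all peaks). Day 1 H3.3H3.2 brains had 8 lower and 0 higher (4.21% and 6.94% of all peaks). H3.3S31A had 6 lower and 1 higher at day 10 (3.77% and 6.43% of all peaks). Day 1 H3.3S31A brains had 6 lower and 0 higher (4.27% and 6.24% of all peaks). The peak at 23290086 to 23290490, 960 bp from mir-10404-4 (a microRNA of the ribosomal RNA transcript), was lower in every mutant. It held 191, 200 and 117 CPM in H3.3null at day 10, 154, 128 and 147 CPM in H3.3H3.2, 138, 133 and 162 CPM in H3.3S31A, and 289, 304 and 286 CPM in OreR. The changes were -0.80 ± 0.13, -1.03 ± 0.13 and -1.03 ± 0.13 at day 10 (edgeR adjusted p at most 1.09e-05) and -0.90 ± 0.13, -0.96 ± 0.13 and -1.02 ± 0.13 at day 1. Ribosomal DNA is repeated and its copy number is not measured here, so copy number and accessibility cannot be told apart at these peaks. The member with the highest level, 23510067 to 23512738 with 1449 CPM on average, changed at day 10 by -0.52 ± 0.12 in H3.3H3.2 and by -0.46 ± 0.12 in H3.3S31A, and was not called in H3.3null (-0.26 ± 0.12, edgeR adjusted p = 0.133). At day 1 it fell in all 3, by -0.44, -0.64 and -0.49.

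**Figure D5:**
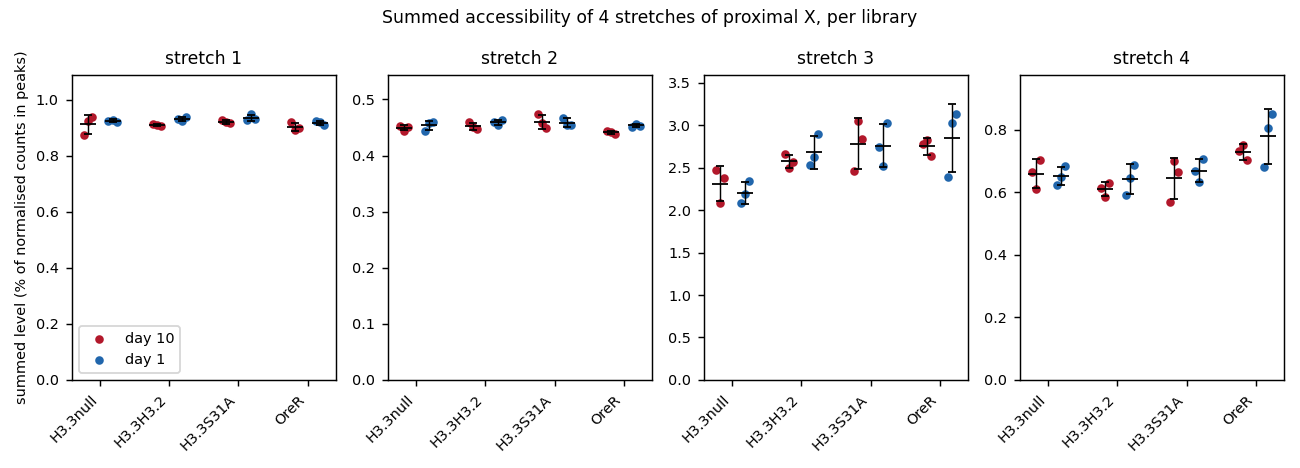
Summed level of the peaks of each stretch in percent of normalised counts, per library, for H3.3null, H3.3H3.2, H3.3S31A and OreR at day 10 (red) and day 1 (blue), with the mean and SD of 3 libraries. In stretch 3 the H3.3null libraries lie between 2.08% and 2.47% and the OreR libraries between 2.39% and 3.13%, while group means lie between 0.903% and 0.934% in stretch 1 and between 0.442% and 0.460% in stretch 2.

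In the gene-rich stretches 1 and 2, 24 of 110 and 9 of 71 peaks were called in H3.3null at day 10 (21.8% and 12.7%, against 24.5% of all peaks). In stretch 1, the peak shared by COX6B, a subunit of cytochrome c oxidase, and Rpp20, a subunit of ribonuclease P, was higher in all 3 mutants at both ages (19743761 to 19745555). It held 286, 251 and 288 CPM in H3.3null at day 10, against 220, 198 and 183 CPM in OreR, and rose by 0.46 ± 0.09 (edgeR adjusted p = 0.000228). With the peaks of Usp2 and lncRNA:flam above, it makes up the 3 members higher in all 6 comparisons (3.49% of all peaks were). The peak near mir-10404-4 and that at 21873315 make up the 2 lower in all 6 (1.11% of all peaks were). Among the Sdic genes, a tandem family of sperm dynein chains whose copies may share reads, intergenic peaks rose in both replacement genotypes. The peak at 20203964 to 20204331 rose at day 10 by 1.13 ± 0.18 in H3.3H3.2 and by 1.01 ± 0.19 in H3.3S31A, and that at 20195956 to 20196747 by 0.96 ± 0.13 and 0.80 ± 0.13. In H3.3null they changed by 0.41 ± 0.20 and 0.27 ± 0.13 without a call.

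Hers encodes a repressor of the replicative histone genes, and was looked at after its values had been seen. Its peak at 19874572 to 19876147 held 348, 383 and 350 CPM in H3.3null at day 10, against 274, 265 and 280 CPM in OreR. It rose by 0.40 ± 0.09 (edgeR adjusted p = 0.00132) at day 10 and by 0.53 ± 0.09 (3.77e-05) at day 1, and was not called in H3.3H3.2 or H3.3S31A. Inside Hers lies amn, the amnesiac neuropeptide gene needed for memory. Of its 3 peaks, 19889930 to 19890492 fell in H3.3null at day 10 (-0.53 ± 0.13). It was also lower in day 1 H3.3H3.2 brains (-0.37 ± 0.12, edgeR adjusted p = 0.0481). Values of like size were not called in H3.3null at day 1 (-0.33, 0.051), H3.3H3.2 at day 10 (-0.35, 0.0851) and H3.3S31A at day 1 (-0.33, 0.0916). H3.3S31A at day 10 changed by -0.11. The peak at 19889067 to 19889691 rose in H3.3S31A, by 0.46 at day 10 and 0.49 at day 1.

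The listed neuronal and developmental genes that have members (shakB, stnA, stnB, sol, slgA, fliI, amn, zld and bves) hold 25 of them. In H3.3null, 4 of the 25 were called at day 10 (24.5% of all peaks were) and 2 at day 1 (24.7% of all peaks). For H3.3H3.2, 1 was called at each age, and for H3.3S31A 2 at day 10 and 1 at day 1 (10.2% to 11.1% of all peaks were). The 8 peaks of shakB, an innexin of electrical synapses, gave 1 lower call at day 10 and 1 higher call at day 1 in H3.3null, and 0 in the other mutants. The called peaks were 20813905 to 20814153 (-0.41) and 20925805 to 20926167 (0.29). stnA and stnB, which share a transcript for synaptic vesicle recycling, have 3 peaks in common. Of these, 23004625 to 23004950 rose at day 10 by 0.37 in H3.3H3.2 and by 0.39 in H3.3S31A, and by 0.36 in H3.3null at day 1. zld, an activator of the early embryonic genome, had 1 of 3 peaks higher in H3.3null at day 10 (0.33), and sol, a calpain protease of the optic lobes, 1 of 3 (0.59). The 3 peaks of slgA (proline dehydrogenase), the 1 of fliI and the 1 of bves were called in none of these comparisons. The table holds 0 peaks of run, su(f), fog, Zw, Cnep1r1, wap, unc and Tao.

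In stg1, a relative of the glutamate receptor partner stargazin, 1 peak (21099448 to 21099656), which also overlaps CG15446, rose in H3.3null. It held 36.4, 41.1 and 40.1 CPM at day 10, against 18, 16.9 and 22.0 CPM in OreR, a change of 1.04 ± 0.18 (edgeR adjusted p = 2.63e-05), with 1.28 ± 0.19 at day 1. H3.3H3.2 and H3.3S31A changed by between -0.12 and 0.07 there. The peaks of CG15456 (20426563 to 20427150) and CG11710 (20427725 to 20428495) fell in H3.3null, by -0.83 and -0.46 at day 10 and by -0.80 and -0.78 at day 1. Near Npc1b, a sterol transporter of the gut, the peak at 20941293 to 20942194 rose by 0.67 ± 0.10 in H3.3H3.2 and by 0.71 ± 0.10 in H3.3S31A at day 10 and was not called in H3.3null.

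The replacement genotypes were also set against H3.3null, which asks what a supply of H3.2 or of H3.3S31A changes relative to no H3.3. H3.3H3.2 had 76 members higher and 26 lower than H3.3null at day 10 (3.64% and 7.05% of all peaks) and 99 higher and 23 lower at day 1 (4.91% and 6.44% of all peaks). Called either way were 25.9% and 31% of members, against 10.7% and 11.4% of all peaks. At both ages, 73 members were higher (2.19% of all peaks) and 17 lower (4.35% of all peaks). In the tract, 58 of 101 peaks were higher in H3.3H3.2 at day 10, with a median of 0.49, and 68 at day 1, with a median of 0.60. H3.3S31A had 98 members higher and 35 lower than H3.3null at day 10 (5.67% and 10.8% of all peaks) and 106 higher and 33 lower at day 1 (6.75% and 9.6% of all peaks). Called either way were 33.8% of members at day 10 and 35.3% at day 1, against 16.4% and 16.3% of all peaks. This last comparison was added after the data had been seen, and both share the H3.3null libraries with the comparisons above. The widest lncRNA:flam peak was lower in H3.3H3.2 than in H3.3null at day 10 (-2.14 ± 0.13, edgeR adjusted p = 1.06e-14), and the peak near lncRNA:CR41352 was higher by 1.84 ± 0.12 (7.29e-14).

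Between the replacement genotypes, few members differed. H3.3H3.2 was higher than H3.3S31A at 2 members and lower at 0 at day 10 (0.332% and 0.0628% of all peaks, 0.395% either way), and higher at 1 and lower at 0 at day 1 (0.314% and 0.144%, 0.458% either way). Without the H3.3S31A day 10 replicate 1 library, 8 were called at day 10, without the H3.3S31A day 10 replicate 2 library 1, and without the H3.3S31A day 1 replicate 3 library, 2 at day 1. At an unadjusted p under 0.05 there were 38 members at day 10 and 31 at day 1. The tract peak at 21832508 to 21833082 was called at both ages. It held 71.6, 67.6 and 88.3 CPM in H3.3H3.2 at day 10, against 42.2, 43.6 and 44.1 CPM in H3.3S31A, a difference of 0.81 ± 0.14 (edgeR adjusted p = 0.00186). Against OreR it was lower in H3.3S31A at day 10 (-0.66 ± 0.14) and higher in H3.3H3.2 at day 1 (0.52 ± 0.13). The peak nearest Ntf-2, 21034752 to 21034922, was the other (1.00 ± 0.18).

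Day 10 was set against day 1 within each genotype to ask for changes in young adult life. OreR had 1 member higher and 1 lower at day 10 (0.718% and 1.19% of all peaks, 1.91% either way), and H3.3null 0 higher and 2 lower (0.386% and 0.538% of all peaks, 0.924% either way). H3.3H3.2 had 0 either way (0.0897% of all peaks higher, 0.52% lower and 0.61% either way), as had H3.3S31A (0.188%, 0.799% and 0.987%). Without 1 library the OreR count was 0 (day 10 replicate 1 or day 1 replicate 2), 1 (day 10 replicate 2 or 3, or day 1 replicate 1) or 2. In H3.3null it was 0 without day 10 replicate 1 or 3 or day 1 replicate 1 or 2, 1 without day 10 replicate 2, and 2 otherwise. At an unadjusted p under 0.05 H3.3H3.2 had 34 members and H3.3S31A 35, and DESeq2 called 1 and 0. In OreR the peak of CG1695 at 20436703 to 20437463 was higher by 0.36 ± 0.10 (edgeR adjusted p = 0.0403) and that at 21158598 to 21158978 lower, at -0.48 ± 0.12 (0.02). In H3.3null the peak of CG32532 at 19545855 to 19547061 was lower, at -0.38 ± 0.10 (0.0388) and that of amn and Hers at 19889930 lower, at -0.55 ± 0.13 (0.0337). These edgeR calls rest on single peaks, and the tract had none in any genotype. The age effect of a mutant minus that of OreR was called by edgeR at 0 members and 0% of all peaks in each mutant, and by DESeq2 at 0 members. At an unadjusted p under 0.05 H3.3S31A had 11 such members, H3.3H3.2 had 8 and H3.3null had 17.

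Other proximal arms were compared with the same thresholds. In H3.3null, 9% of all peaks were lower and 15.5% higher at day 10, and 10.6% lower and 14.1% higher at day 1. On 3L, 389 peaks start above 24 Mb, and in H3.3null 103 of them fell and 23 rose at day 10, and 162 fell and 12 rose at day 1. Lower calls on 3L thus exceeded the share of all peaks at both ages, so such an excess was not particular to X. The summed share of the 3L peaks was 3.59% to 4.36% in H3.3null at day 10, against 4.21% to 4.62% in OreR. At day 1 it was 3.52% to 4.08% in H3.3null, against 3.99% to 5.17% in OreR. The OreR day 1 replicate 1 library, lowest of its group in the X tract, was lowest here as well (3.99%), and the part of such library differences in the X counts was not tested. On 2L, 295 peaks start above 19.5 Mb, of which 31 fell and 35 rose at day 10, and 45 fell and 27 rose at day 1. On the rest of X, 102 of 1782 peaks were lower and 296 higher at day 10 (16.6% higher, near the 15.5% of all peaks), and 101 lower and 280 higher at day 1. Its mean summed share was 15.5% in H3.3null libraries, against 15.7% in OreR, at day 10. The day 1 means were 15.6% in H3.3null, against 15.7% in OreR. Means for the rest of X were lower in H3.3H3.2 (14.8% at each age) and in H3.3S31A (14.7% at each age). All libraries of these replacement genotypes lay below all OreR libraries there, and the cause was not tested.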

How the data were processed

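ATAC-seq libraries of 24 samples were analysed, 3 in each of 8 groups taken from the sample labels. The authors deposited a table of raw read counts per peak, with peaks shared by all samples. Per the submitters' processing notes, the tools included STAR 2.7.7a, SAMtools 1.9, bedtools 2.26, deepTools 3.2.0, featureCounts (Subread 2.0.1) and DESeq2 1.34.0, with build dm6. The peak caller and the handling of reads that match several places are not given in the sources used here, nor is whether starts count from 0 or 1, so coordinates are printed as the table gives them. The labels' extraction text describes RNA, although the assay and molecule fields give genomic DNA.

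The counts were tested with edgeR 4.0.16 (R 4.3.3, limma 3.58.1): TMM scaling, filterByExpr by group (0 peaks removed), 1 coefficient per group over all 24 samples (16 residual degrees of freedom), robust glmQLFit and glmQLFTest, and Benjamini-Hochberg adjustment over 11145 peaks per contrast. The threshold for a call was an adjusted p under 0.05. CPM are scaled by TMM library sizes, and errors of log2 fold changes are SE = |log2 fold change| / sqrt(F). Sums of peaks are in percent of normalised counts, meaning of the TMM-scaled library size. The total over all peaks therefore varies between libraries around 100%. Genes came from a RefSeq table (Release 6) with 17684 genes on 6 arms, matched by overlap or by distance. Counts were simulated for H3.3null minus OreR at day 1 (11145 peaks). Of 67 peaks changed by 0.5 on the log2 scale, 64.2% were recovered. All (100%) of the 73 changed by 1 and of the 60 changed by 2 were recovered, with 9 false calls. In the data 24.7% of all peaks were called in this contrast, so these rates need not carry over.

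The members, lists and contrasts were chosen with earlier results of these data known. Named peaks were those with the smallest p in each direction of each mutant comparison whose libraries did not overlap, those called in all 6 mutant comparisons, those called in H3.3H3.2 minus H3.3null at both ages (up to 6 in each direction), those called with age, those in the listed genes, and those nearest the threshold, nearest the centromere or highest or lowest in level. Peaks named outside this rule (most of those in the tract, the repeated gene families, Hers, CG15456, CG11710, near Npc1b and next to the peak near lncRNA:CR41352) were chosen after their values were seen. Alternatives were no filter, a minimum mean count of 50, library totals, RLE size factors, TMM factors from autosomal peaks, the Wald test of DESeq2 1.42.0, an adjusted p under 0.01, a replicate block, fits of the compared groups alone and leaving out each library.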

Additional observations from a re-analysis of the deposited data

How the results depend on the processing

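The counts of called members for H3.3null minus OreR, and for either replacement genotype minus H3.3null, stayed within 1.5 times of their main value under every alternative run. Leaving out 1 library at a time gave 124 to 134 calls at day 10 and 128 to 153 at day 1 for H3.3null minus OreR, 26 to 35 and 30 to 45 for H3.3H3.2 minus OreR, and 28 to 38 and 29 to 49 for H3.3S31A minus OreR. It gave 92 to 99 and 102 to 112 for H3.3H3.2 minus H3.3null, 116 to 140 and 114 to 130 for H3.3S31A minus H3.3null, and 1 to 8 and 1 to 2 for H3.3H3.2 minus H3.3S31A. For day 10 minus day 1 it gave 0 to 2 in OreR and H3.3null alike, 0 to 0 in H3.3H3.2 and 0 to 1 in H3.3S31A. At an adjusted p under 0.01, H3.3H3.2 minus OreR had 23 calls at day 10 and 23 at day 1, H3.3S31A minus OreR 22 and 26, and the age comparisons 0 in OreR and 0 in H3.3null. With only the compared groups fitted, H3.3H3.2 minus OreR had 74 at day 10, H3.3H3.2 minus H3.3S31A 3 at day 1, and the age comparisons 2 in H3.3H3.2, 4 in H3.3null and 0 in OreR. Library totals gave 2 for H3.3H3.2 minus H3.3S31A at day 1, and DESeq2 gave 1 for age in H3.3H3.2. The causes of these shifts were not tested. Same-numbered libraries had a median correlation of deviations of -0.01 over 84 pairs, 24 of them above 0.1, against 35 of 168 pairs with different numbers, and 12 of 24 libraries correlated best with their own number. Since not every same-numbered pair was above 0.1, the numbers were not taken to pair samples. That rule is strict, and failing it does not show that the samples are unpaired. The fit with a replicate block gave 2 for H3.3H3.2 minus H3.3S31A at day 1 and 1 for age in H3.3H3.2. Over 76 named peaks, 6582 of 6840 alternative values kept their call or lack of one, 196 lost the call and 62 gained one. Of values called in the main or the alternative fit, 0 reversed direction. Values called in neither fit counted as kept whatever their direction. Of the 6582, no filter gave 456 and the minimum mean count of 50 gave 456. The main filter removed 0 peaks, so both runs repeat the main fit, here and in the counts above, and their agreement was fixed in advance. The median SE of a member was 0.125 on the log2 scale, and how much of it is due to depth was not tested.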
